A study of Mus musculus with 12 samples.

Results

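Fast fibre contractile genes, 10 genes chosen by name from the 24539 genes of a count table, were followed in the soleus muscle of mice with and without a muscle knockout of the DNA methyltransferase gene Dnmt3a. They were Myh1, Myh2 and Myh4 (fast myosin heavy chains), Mylpf (fast regulatory light chain), Mybpc2 (fast myosin-binding protein C), Actn3 (alpha-actinin of the fast Z-disc), Tnnt3, Tnni2 and Tnnc2 (the 3 subunits of fast troponin) and Pvalb (parvalbumin, a cytosolic calcium buffer). All 10 were found in the table, and all 10 were among the 13886 genes that passed the filter on low counts. The RNA came from C57BL/6 mice on a chow diet in 4 groups of 3 libraries. Wild type (WT) mice carried floxed Dnmt3a alleles, and knockout (KO) mice are named MCK-Dnmt3a KO. MCK is the usual short form of muscle creatine kinase, a promoter that drives Cre in striated muscle fibres and would leave Dnmt3a intact in the other cells of the muscle. Each genotype was sampled sedentary and after exercise. The sources used here do not state the kind of exercise, the time of dissection, or the age and sex of the mice. The libraries of a group are called a, b and c. Of the libraries called a, those of both exercised groups (WT exercise a, KO exercise a) are headed by 2 animal numbers instead of 1, and no source says if RNA was pooled.

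A muscle fibre contracts when myosin heavy chains in the thick filament pull on actin in the thin filament, and the isoform of the heavy chain sets how fast this happens. Mouse fibres are classed by that isoform as type I (Myh7, slow), IIa (Myh2), IIx (Myh1) or IIb (Myh4, the fastest). Calcium starts the cycle by binding troponin C, which moves troponin I and troponin T on the thin filament, and fast and slow fibres use different genes for these subunits. The mouse soleus is a calf muscle made mostly of type I and IIa fibres, whereas the neighbouring gastrocnemius and plantaris hold many IIb fibres, in which Myh4, Actn3, Pvalb and Mybpc2 are abundant. In RNA from whole muscle, fewer fibres of a type and less RNA per fibre cannot be told apart.

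The libraries held 13329547 to 15480960 counts. Levels are given as CPM (gene counts brought to 1 library size by TMM scaling), and group means with their SD rest on 3 libraries. Levels of different genes are compared as CPM per kilobase of exon, apart from shares named as by counts. Marker sums, and the part of a gene in them, use CPM not divided by length. Dnmt3a stood at 48.6 to 60.5 CPM in the 6 KO and at 113 to 180 CPM in the 6 WT libraries, so the knocked-out gene followed the labels. The slow muscle markers Myh7, Myl2, Tnnt1, Tnni1 and Tnnc1, which define the soleus among calf muscles, together reached 17196 to 26469 CPM in every library. Some libraries stood apart in RNA of other tissues. The sum of 6 liver genes (Alb, Apoa1, Ahsg, Fgb, Fgg, Serpina1c) reached 442 CPM for KO sedentary b, 287 CPM for WT exercise b and 259 CPM for WT exercise c, and at most 30.7 CPM for the other 9 libraries, of which KO exercise a had no count of any of the 6. The sum of 5 Schwann cell genes, which mark myelinated nerve, was 798 CPM for KO sedentary b, 705 for WT sedentary a and 376 in KO exercise c, against 109.7 to 185 in the other 9.

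The main result was a spread between libraries of one group, with no difference between groups that passed the test. None of the 10 genes was called in any of 7 comparisons of genotype and exercise, whether by edgeR, DESeq2 or limma-voom. One library, KO sedentary b, had the highest level of 9 of the 10 genes, and another of the same group, KO sedentary a, had the lowest level of 8. The spread was far wider for 4 genes than for the other 6. Between the lowest and highest library Myh4 differed 163-fold, Actn3 33.0-fold, Pvalb 22.5-fold and Mybpc2 12.3-fold, whereas the other 6 differed 1.55-fold (Tnnc2) to 2.25-fold (Myh1). The median tested gene differed 1.64-fold, so of these 6 only Tnnc2 varied less than the median gene.

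**Figure D1:**
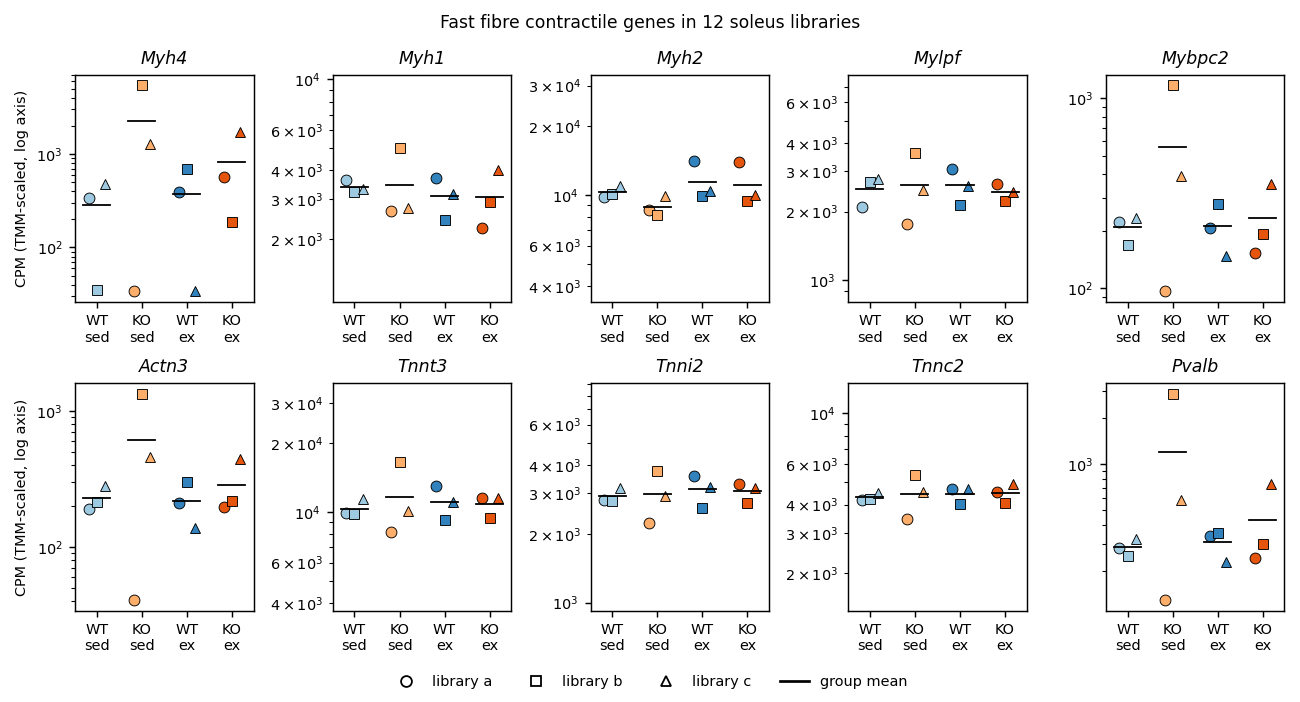
Level of each of the 10 genes in every library, in CPM on a log axis whose range is set per gene, by genotype and condition (sed, sedentary; ex, exercise); circles, squares and triangles are libraries a, b and c and the line is the group mean. KO sedentary b (square) is the highest point for every gene but Myh2, and the WT and KO groups overlap in every panel.

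The most abundant of these transcripts per length was Tnnt3, with a mean of 6919 CPM per kilobase of exon over the 12 libraries, followed by Tnnc2 at 5541, Mylpf at 2396 and Tnni2 at 2019 CPM per kilobase. Of the heavy chains, Myh2 stood at 1459, Myh1 at 512 and Myh4 at 156 CPM per kilobase. Pvalb stood at 532, Actn3 at 116 and Mybpc2 at 83.6 CPM per kilobase. The 4 genes with the wide spread were thus among the 5 least abundant per length, with Myh1 as the other one. The length is that of all GENCODE exons of a gene together, so exons that muscle does not use lower the value.

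Myh1, Myh2 and Myh4 lie side by side on chromosome 11 (mm10): Myh2 at 67171027 to 67197517, Myh1 at 67200052 to 67224575 and Myh4 at 67238029 to 67260446, all on the plus strand. The 3 paralogs are similar in sequence. Of the 50-base stretches of the longest GENCODE transcript, 13.3% in Myh4, 23% in Myh1 and 22.3% in Myh2 also occur in another adult heavy chain, which falls to 2.55%, 8.93% and 7.89% for 100 bases. How reads from such stretches were counted is not stated, so the split between these 3 genes is uncertain to that extent. Exons of Myh1 overlap the antisense gene Myhas, those of Myh2 the antisense gene 9430073C21Rik, those of Tnnc2 the other-strand gene Ube2c and those of Mybpc2 the other-strand gene Gm44646, and whether counting used strand is not stated.

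The 250 bases before the transcription start are shown for the 3 heavy chains, which share a locus but spread differently between libraries, and for Pvalb and Mybpc2, whose levels ranked the libraries much as Myh4 did. They come from RefSeq (GRCm38.p6, the build mm10), which had an entry for 7 of the 10 genes and 2 starts for Pvalb, of which the upstream one is shown. Capitals mark matches on either strand to MEF2 (the binding motif of MEF2 factors, which act in muscle gene promoters), to the CArG box (bound by serum response factor) and to the TATA box (TATAAA), whose reverse strand match lies inside the MEF2 match in Myh1 and Myh4. RefSeq starts can differ from the GENCODE starts given above.
Myh4, chr11:67237562-67237811, plus strand: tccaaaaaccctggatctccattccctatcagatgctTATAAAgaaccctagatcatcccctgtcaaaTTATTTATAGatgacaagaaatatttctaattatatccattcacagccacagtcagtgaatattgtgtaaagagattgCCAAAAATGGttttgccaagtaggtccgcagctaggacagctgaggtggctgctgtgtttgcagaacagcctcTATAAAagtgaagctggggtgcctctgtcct
Myh1, chr11:67199852-67200101, plus strand: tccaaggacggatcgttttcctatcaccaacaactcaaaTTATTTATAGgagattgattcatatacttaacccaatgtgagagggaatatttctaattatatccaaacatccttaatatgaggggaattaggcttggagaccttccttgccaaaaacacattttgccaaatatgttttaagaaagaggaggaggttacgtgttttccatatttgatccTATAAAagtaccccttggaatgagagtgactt
Myh2, chr11:67170777-67171026, plus strand: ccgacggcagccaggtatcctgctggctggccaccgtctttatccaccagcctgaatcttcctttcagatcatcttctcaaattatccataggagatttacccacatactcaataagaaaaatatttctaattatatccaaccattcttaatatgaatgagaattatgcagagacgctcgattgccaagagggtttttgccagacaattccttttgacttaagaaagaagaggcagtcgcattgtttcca
Pvalb, chr15:78206401-78206650, minus strand: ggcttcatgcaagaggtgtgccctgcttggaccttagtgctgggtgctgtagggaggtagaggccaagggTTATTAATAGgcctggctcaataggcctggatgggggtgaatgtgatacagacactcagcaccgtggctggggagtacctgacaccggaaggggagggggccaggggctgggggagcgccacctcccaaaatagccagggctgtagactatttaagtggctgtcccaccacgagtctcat
Mybpc2, chr7:44524670-44524919, minus strand: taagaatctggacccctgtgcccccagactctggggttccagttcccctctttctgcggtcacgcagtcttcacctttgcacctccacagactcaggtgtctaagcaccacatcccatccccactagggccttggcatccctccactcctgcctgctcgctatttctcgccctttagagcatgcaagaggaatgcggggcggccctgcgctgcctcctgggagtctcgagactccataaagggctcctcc
A MEF2 match was found in Myh4, Myh1 and this Pvalb promoter, 3 of the 8 member promoters, beside 2.92% of 32851 RefSeq promoters of the same length. TATA boxes were found in Myh4 and Myh1 only, 2 of 8, beside 12.4% of all. A CArG box was found in Myh4, 1 of 8, beside 1.47%. MEF3 (TCAGGTT, a motif of muscle gene promoters) matched 0 of 8, beside 3.49%. The E-box CANNTG of myogenic factors matched 5 of 8, beside 66.2%, and the NFAT core GGAAA matched 3 of 8, beside 55.6%. These matches describe letters in a window and were not tied to binding in these samples.

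Myh4, the IIb heavy chain, varied most. It stood at 336, 35.0 and 483 CPM in the sedentary WT libraries and at 33.8, 5505 and 1275 CPM in the sedentary KO libraries. After exercise it stood at 391, 684 and 34.3 CPM in WT and at 566, 187 and 1741 CPM in KO muscle. In 3 libraries of 3 groups (WT sedentary b, KO sedentary a and WT exercise c) Myh4 was thus near 34 CPM, on 496 to 537 counts. The ratio of Myh4 to Myh2 counts in these 3 was 0.00349, 0.00395 and 0.00329. The part of reads from stretches shared with other heavy chains in these low values was not tested. The KO libraries included both the highest and the lowest Myh4 value of all 12. The biological coefficient of variation of Myh4, the spread between replicates that edgeR fits beyond counting noise, was 1.18, higher than or equal to that of 99.6% of tested genes, where the median gene had 0.137.

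Myh1, the IIx heavy chain, moved far less. It stood at 3637, 3217 and 3326 CPM in sedentary WT and at 2658, 5017 and 2735 CPM in sedentary KO muscle, and after exercise at 3706, 2426 and 3140.1 CPM in WT and 2230.1, 2904 and 4035 CPM in KO muscle. The sedentary WT libraries were close together, and KO sedentary b stood above all others.

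Myh2, the IIa heavy chain and one of the main myosins of the soleus, was the exception to the order of the libraries. It stood at 9792, 10036 and 10949 CPM in sedentary WT and at 8555, 8166 and 9914 CPM in sedentary KO muscle, so KO sedentary b was the lowest of all 12 libraries for this gene. After exercise it stood at 13998, 9847 and 10429.6 CPM in WT and 13855, 9407 and 10002 CPM in KO muscle. The 2 high values, WT exercise a and KO exercise a, belong to the 2 libraries whose columns carry 2 animal numbers. The other 10 libraries lay at 8166 to 10949 CPM. The same 2 libraries had the highest sum of 7 striated muscle markers. It was 103710 CPM for KO exercise a and 100290 CPM for WT exercise a, against 73851 to 96471 in the others. Acta1 was the largest part of it, at 53083 and 54971 CPM, and the 7 did not move as one. Acta1, Mb and Tcap were highest in these 2 libraries, whereas Ttn (8903 CPM) and Pgam2 (875 CPM) were lowest of all 12 in WT exercise a. The part of these markers in the Myh2 values was not tested.

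As a share of the CPM per kilobase of the 4 adult heavy chains, Myh2 and the slow Myh7 together made up most of the message in every library. In sedentary WT muscle Myh7 had 34.1 ± 5.11%, Myh2 46.9 ± 2.42%, Myh1 17.5 ± 2.21% and Myh4 1.56 ± 1.23% (n = 3). KO sedentary b differed from this, with Myh4 at 24.9%, Myh1 at 21.5%, Myh2 at 31.2% and Myh7 at 22.3%. The next highest shares of Myh4 were 8.15% in KO exercise c and 6.87% in KO sedentary c, and the lowest was 0.173% in WT exercise c. KO sedentary a, in the same group as KO sedentary b, had 0.213%. The order of the genes in a library depends on the length used. The exon length was 8616 bases for Myh7 and 6016 for Myh4, whereas their longest transcripts had 6230 and 6016 bases. By counts not divided by length, KO sedentary b had Myh7 at 27.4%, above Myh4 at 21.4%. KO exercise b had Myh7 at 45.1% and Myh2 at 41.3% by counts, against 39.8% and 44.0% per kilobase. Shares are descriptions of a library and were not tested.

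**Figure D2:**
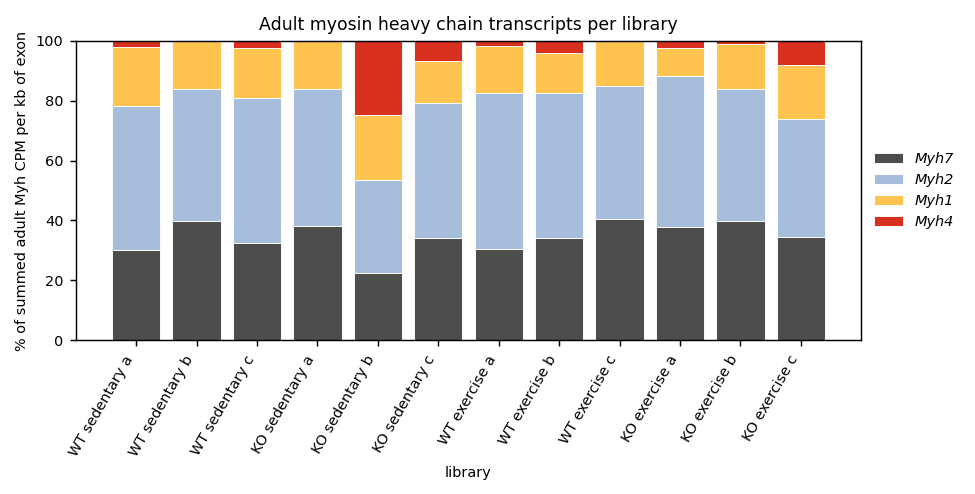
Share of each adult myosin heavy chain gene in their summed CPM per kilobase of exon (bars, % of the sum, 1 bar per library). Myh4 makes up 24.9% in KO sedentary b and at most 8.15% in the other 11 libraries, and Myh7 and Myh2 fill most of each bar. By counts not divided by length, Myh4 makes up 21.4% in KO sedentary b, below Myh7 at 27.4%.

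Of the other thick filament and Z-disc genes, Mylpf (chromosome 7, 127208890 to 127214298, plus strand) varied far less than Mybpc2 (chromosome 7, 44501699 to 44524656, minus strand) and Actn3 (chromosome 19, 4861216 to 4877909, minus strand). Mylpf stood at 2089, 2686 and 2764 CPM in sedentary WT, at 1774, 3613 and 2487 CPM in sedentary KO, at 3083, 2147 and 2589.8 CPM in exercised WT and at 2648, 2230.3 and 2428 CPM in exercised KO muscle. All 4 groups overlapped.

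Actn3, the actinin found almost only in fast glycolytic fibres, stood at 189, 212 and 282 CPM in sedentary WT and at 40.5, 1338 and 457 CPM in sedentary KO muscle. After exercise it stood at 211, 298 and 139 CPM in WT and 198, 219 and 439 CPM in KO muscle. The low value of KO sedentary a rested on 645 counts and lay below every other library, of which the next lowest, WT exercise c, had 139 CPM. Mybpc2 stood at 223, 169 and 235 CPM in sedentary WT, at 95.7, 1180.3 and 391 CPM in sedentary KO, at 208, 278 and 147 CPM in exercised WT and at 152, 192 and 353 CPM in exercised KO muscle. Of the 12 libraries, KO sedentary b was highest, followed by KO sedentary c and KO exercise c for Actn3 and Mybpc2 alike.

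The fast troponin genes, which sense calcium on the thin filament, had narrow ranges beside those of Myh4, Actn3, Pvalb and Mybpc2. Tnnt3 (chromosome 7, 142498836 to 142516009, plus strand) binds tropomyosin and stood at 9867, 9754 and 11393 CPM in sedentary WT, 8178, 16536 and 10103 CPM in sedentary KO, 12987, 9223 and 11030.4 CPM in exercised WT and 11485, 9387 and 11491 CPM in exercised KO muscle. Tnni2 (chromosome 7, 142441808 to 142444410, plus strand), the inhibitory subunit, stood at 2815, 2794 and 3173 CPM, 2224, 3772 and 2920.3 CPM, 3583, 2596 and 3196 CPM, and 3301, 2714 and 3175 CPM in the same groups. Tnnc2 (chromosome 2, 164777161 to 164779967, minus strand), the calcium-binding subunit, stood at 4193, 4217 and 4496 CPM, 3467, 5376 and 4528 CPM, 4686, 4029 and 4673 CPM, and 4535, 4069.9 and 4923 CPM. In all 3 genes KO sedentary a and KO sedentary b marked the lowest and the highest of the 12 libraries, while the sedentary WT libraries differed little, with SDs of 8.85% (Tnnt3), 7.29% (Tnni2) and 3.92% (Tnnc2) of their means.

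Pvalb (chromosome 15, 78191114 to 78206400, minus strand), which speeds relaxation of fast fibres by taking up calcium, stood at 282, 249.6 and 323 CPM in sedentary WT and at 128, 2884 and 582 CPM in sedentary KO muscle. After exercise it stood at 336, 354 and 228 CPM in WT and 240.2, 299 and 738 CPM in KO muscle. KO sedentary b was 3.91-fold above the next library, KO exercise c, the widest such step among the 10 genes, and the 6 WT libraries stayed between 228 and 354 CPM.

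**Figure D3:**
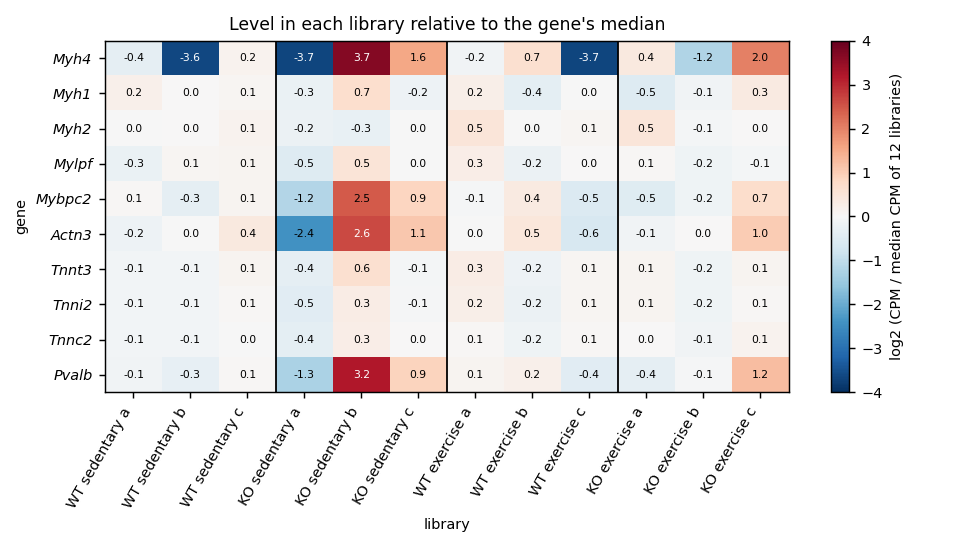
Level of each gene in each library as log2 of its CPM over the gene's median of the 12 libraries (red above, blue below; numbers are the plotted values; rows are genes, columns are libraries and black lines divide the groups). KO sedentary b is above the median for every gene but Myh2 and KO sedentary a is below it for every gene, and the colours are strong only for Myh4, Mybpc2, Actn3 and Pvalb.

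The spread of these genes lay inside the groups to a larger degree than for most genes. Of the sum of squares of log2 CPM over the 12 libraries, 98.6% was within groups for Mylpf, 97.5% for Tnnt3, 97.5% for Tnnc2, 96.9% for Actn3, 96.1% for Tnni2 and 93.5% for Myh1. It was 86.9% for Myh4, 86% for Mybpc2, 84.6% for Pvalb and 63.9% for Myh2, and the median tested gene had 66.9%. Only Myh2 lay below that median.

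Sedentary KO muscle was set against sedentary WT muscle, which asks what loss of Dnmt3a in muscle changes at rest. The 4 widely spread genes had higher means in KO muscle, and the log2 fold changes of the other 6 lay between −0.21 (Myh2) and 0.17 (Tnnt3). Mean levels went from 285 ± 228 CPM in WT to 2271 ± 2868 in KO for Myh4, from 228 ± 48.5 to 612 ± 662 for Actn3, from 285 ± 36.7 to 1198 ± 1478 for Pvalb and from 209 ± 35.1 to 556 ± 561 for Mybpc2, with an SD in KO of about the size of the mean. In the quasi-likelihood test of edgeR, with p-values adjusted over 13886 genes, the log2 fold change was 3.00 for Myh4 (SE 1.70, adjusted p = 0.986). It was 2.07 for Pvalb (SE 0.893, adjusted p = 0.986) and 1.42 for Actn3 (SE 0.889) and 1.41 for Mybpc2 (SE 0.714), both with the same adjusted p. None of the 10 was called and 0 of 10 had groups that did not overlap, beside 0.0288% and 10.4% of all tested genes by edgeR. DESeq2 and limma-voom called none of the 10 either. An unadjusted edgeR p under 0.05 was reached by 1 of the 10, Pvalb, beside 4.83% of all tested genes.

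These means rested on KO sedentary b. Without it the log2 fold change was 1.20 for Myh4, 0.32 for Pvalb, 0.22 for Mybpc2 and 0.13 for Actn3, and those of Myh1, Mylpf, Tnnt3, Tnni2 and Tnnc2 turned from slightly positive to between −0.33 (Myh1) and −0.11 (Tnnc2). The median over the 10 genes was 0.11 with it and −0.13 without it, beside 0.0026 over all tested genes. KO sedentary b also had the highest sums of liver (442 CPM), Schwann cell (798 CPM) and macrophage genes (291 CPM, against 61.8 to 159 elsewhere). Erythrocyte genes were positive for KO against WT at rest in 5 of 5 (median log2 1.07). Each had an unadjusted edgeR p under 0.05, beside 4.83% of all tested genes, and none was called. Hba-a1 and Hba-a2 of this list had identical counts in every library, so they are not separate measurements. The erythrocyte sum was 199, 519 and 534 CPM in KO sedentary a, b and c and 166 to 227 CPM in WT muscle. The sums of regenerating or denervated fibre genes did not overlap (225 to 415 CPM in KO, 139.8 to 165 CPM in WT), and neither did those of liver genes (13.9 to 442 and 0.497 to 3.35 CPM). The part of these in the fast fibre values was not tested.

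For genes with the smaller spread the test set limits on a change at rest. The 95% interval of the log2 fold change ran from −0.26 to 0.36 for Tnnc2, from −0.35 to 0.40 for Tnni2, from −0.57 to 0.15 for Myh2 and from −0.57 to 0.63 for Myh1. For Myh4 it ran from −0.85 to 6.84, which is wide enough that a several-fold change of Myh4 was not detectable at this spread.

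After exercise, KO was compared with WT in the same way, and again no gene passed the test. The mean of Myh4 went from 370.0 ± 326 CPM in WT to 831 ± 810 in KO muscle (log2 1.17, SE 1.60), Pvalb from 306 ± 68.5 to 426 ± 272 (log2 0.48, SE 0.862) and Actn3 from 216 ± 79.8 to 285 ± 134 (log2 0.40, SE 0.875). The other 7 changes lay between −0.098 (Mylpf) and 0.14 (Mybpc2). None of the 10 was called (adjusted p = 1 for each) and 0 of 10 had groups that did not overlap, beside 0.0216% and 7.16% of all tested genes. An unadjusted p under 0.05 was reached by 0 of 10, beside 3.38% of all. Without KO exercise c, the library with the highest Myh4 of its group, the change of Myh4 was 0.026 and those of Actn3, Pvalb and Mybpc2 turned negative.

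Exercise was compared with the sedentary state in each genotype. In WT muscle the mean of Myh4 went from 285 ± 228 to 370.0 ± 326 CPM (log2 0.38, SE 1.58), and the other changes ran from −0.13 (Myh1) to 0.16 (Myh2), with a median of 0.074 over the 10 genes and 0.0041 over all genes. None of the 10 was called and 0 of 10 had groups apart, beside 0.0216% and 15.3% of all genes, and 0 of 10 had an unadjusted p under 0.05, beside 9.41% of all. In KO muscle the means of the 4 widely spread genes were lower after exercise: log2 −1.49 for Pvalb, −1.45 for Myh4, −1.26 for Mybpc2 and −1.10 for Actn3 (SE 0.877, 1.61, 0.712 and 0.882). Without KO sedentary b they were 0.26, 0.35, −0.064 and 0.20. None was called (lowest adjusted p = 0.323, Myh2) and 0 of 10 had groups apart, beside 0% and 22.7% of all genes, with 0 of 10 at an unadjusted p under 0.05, beside 17.9% of all. The sums of 5 marker lists did not overlap between sedentary and exercised KO muscle: macrophage genes were at 144 to 291 CPM in sedentary and 61.8 to 122 CPM in exercised KO muscle, adipocyte genes at 146 to 216 and 26.8 to 134 CPM, endothelial genes at 662 to 761 and 419 to 592 CPM, liver genes at 13.9 to 442 and 0 to 9.92 CPM, and slow muscle genes at 17745 to 20865 and 23792 to 26260 CPM. Erythrocyte genes, at 199 to 534 and 164 to 204 CPM, overlapped. In WT muscle the endothelial sums did not overlap either, at 753 to 779 CPM sedentary and 526 to 618 CPM exercised. The macrophage, adipocyte, liver and slow muscle sums did overlap in WT muscle. Macrophage and adipocyte genes were still negative for exercise in WT in 8 of 8 and 6 of 6. The part of these lists in the fast fibre values was not tested.

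Myh2 had the lowest p of the 10 genes for exercise. Averaged over both genotypes its log2 fold change was 0.24 (SE 0.117, adjusted p = 0.247), and without WT exercise a and KO exercise a, the 2 libraries with 2 animal numbers, it was 0.055. In that average 0 of the 10 genes were called, beside 2.32% of all tested genes, and 0 of 10 had an unadjusted p under 0.05, beside 22.8%. Endothelial markers fell in that average: Pecam1 (log2 −0.41, adjusted p = 0.0234), Emcn (−0.39, adjusted p = 0.0256) and Cdh5 (−0.42, adjusted p = 0.0389), 3 of the 5 listed. Leaving out single libraries ended these calls with little change in size. Without WT sedentary c, WT exercise a or c, or KO sedentary b the adjusted p of Pecam1 was 0.0501 to 0.0716 at a log2 fold change of −0.41 to −0.39. Without WT sedentary a, b or c, KO exercise c, WT exercise a, or KO sedentary b the adjusted p of Emcn was 0.0519 to 0.0715 at a log2 fold change of −0.40 to −0.35. Without WT sedentary a, b or c, KO exercise a or c, WT exercise a or c, or KO sedentary b or c the adjusted p of Cdh5 was 0.0559 to 0.0945 at a log2 fold change of −0.43 to −0.35. The part of endothelium in the values of Myh2 was not tested. In the average of the genotype effect 0 of 10 were called and 0 of 10 had an unadjusted p under 0.05, beside 0.0576% and 4.5% of all genes, with Myh4 at 2.08 (SE 1.16, adjusted p = 1; 1.19 without KO sedentary b) and Tnnc2 at 0.033 (95% interval −0.18 to 0.25). The interaction, which asks whether the exercise response differed between genotypes, called 0 of 10 and gave 0 of 10 an unadjusted p under 0.05, beside 0% and 3.1% of all genes, with Myh4 at −1.83 (SE 2.25; −0.033 without KO sedentary b) and Tnnc2 at −0.036 (SE 0.200).

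**Figure D4:**
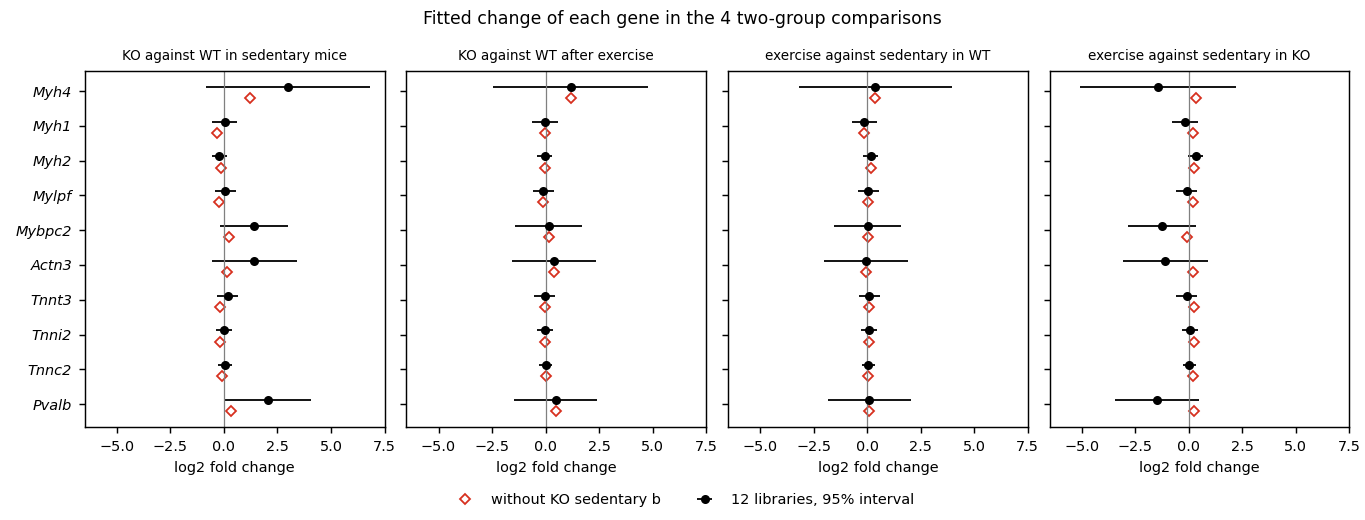
Log2 fold change of each gene in the 4 comparisons of 2 groups; black points and lines are the fit of all 12 libraries with its 95% interval, and red diamonds are the fit without KO sedentary b. The intervals are wide for Myh4, Mybpc2, Actn3 and Pvalb and include 0 for every gene except Pvalb in sedentary mice, whose adjusted p was 0.986.

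Genes listed as other fast fibre genes, not all of which followed the 10 members, gave 0 of 19 calls by edgeR in each of the 7 comparisons. They included Myl1 (the fast essential light chain), Atp2a1 (the calcium pump of the fast sarcoplasmic reticulum), Casq1 (its calcium-storing protein) and Mylk2 (the kinase of the regulatory light chain). In KO sedentary b Atp2a1 stood at 19498 CPM, Myl1 at 2737 and Casq1 at 2655, each the highest of the 12 libraries, where the others had 11204 to 16962, 1326 to 2192 and 1112 to 1849.8. Among the 19, sedentary KO against WT gave positive changes in 16, beside 7045 of all 13886 tested genes, and a median of 0.11. An unadjusted edgeR p under 0.05 was reached by 3 (Mybph, Sln and, lower in KO, Actn2, with log2 −0.34), beside 4.83% of all tested genes. The lowest adjusted p belonged to Sln, which encodes sarcolipin, an inhibitor of the calcium pump. It stood at 68.4, 111 and 72.1 CPM in sedentary WT and 192, 117 and 159.9 CPM in sedentary KO muscle. The groups did not overlap, as in 10.4% of all tested genes (log2 0.90, adjusted p = 0.684 by edgeR and 0.027 by DESeq2, and 0.027 to 1 over all alternatives). KO sedentary b, the highest library for 9 of the 10 members, was the lowest of its group for Sln. For Actn2 it was the lowest of the 12 libraries, at 4226 CPM, so neither gene followed the members there. Mybph, the myosin-binding protein H gene, had 1.68, 2.17 and 1.61 CPM in sedentary WT and 17.0, 23.3 and 3.16 CPM in sedentary KO muscle (log2 2.99, adjusted p = 0.986).

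Slow fibre contractile genes, the counterpart programme, gave 0 of 14 calls by edgeR in each of the 7 comparisons. In KO sedentary b Myh7 was at 7059 CPM, the lowest of the 12 libraries (others 7419.9 to 12453), while the sum of 5 slow markers was lower still in WT sedentary a (17196 CPM against 17745). At rest, KO against WT gave negative changes in 12 of 14, beside 6841 of all 13886 tested genes. The 14 changes ran from −0.78 (Ankrd2, a titin-associated stress protein) to 0.053 (Casq2, the slow calsequestrin), with a median of −0.13. An unadjusted edgeR p under 0.05 was reached by 1 (Ankrd2), beside 4.83% of all tested genes. Averaged over both genotypes, exercise gave positive changes in 14 of 14 slow genes (median 0.25), beside 6953 of all 13886 tested genes. An unadjusted edgeR p under 0.05 was reached by 10 of the 14, beside 22.8% of all (lowest adjusted p = 0.0929 for Csrp3). For exercise in WT alone the median was 0.16 and 0 of 14 reached it, beside 9.41% of all. For exercise in KO alone the median was 0.35 and 8 of 14 reached it, beside 17.9% of all. In the average of both genotypes, rises were not limited to slow genes: the striated muscle markers were positive in 6 of 7 (median 0.185). Endothelial, macrophage and adipocyte markers were negative in 5 of 5, 8 of 8 and 6 of 6. The part of these lists in the slow gene values was not tested. The median of the 10 fast genes was −0.093, and 0.15 without KO sedentary b. DESeq2 called Csrp3, a muscle LIM protein, and Myl2, the slow regulatory light chain, in that comparison, beside 1012 of all 13886 tested genes.

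Regulators of fibre type gave 0 of 28 calls by edgeR in each of the 7 comparisons. The list included Six4 and Eya genes (activators of the fast programme), Sox6 (a repressor of slow genes), Prox1 and the calcineurin-dependent Nfatc genes (linked to the slow programme) and the MEF2 genes. For exercise averaged over both genotypes the regulators that DESeq2 called included Prox1 (log2 0.46 and adjusted p = 0.0929 by edgeR), Vgll2, a TEAD cofactor (0.39, 0.0919), and Bhlhe40, a clock-linked repressor (−0.38, 0.0834). Of all 13886 tested genes DESeq2 called 1012 in that comparison. At rest, the changes of the 28 ran from −0.39 (Six4) to 0.60 (Ppargc1a, a coactivator of mitochondrial genes) with a median of 0.025. An unadjusted edgeR p under 0.05 was reached by 1 (Sox6, log2 0.32), beside 4.83% of all tested genes.

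Within the myosin cluster itself, 2 of 7 genes had an unadjusted edgeR p under 0.05 at rest, beside 4.83% of all tested genes. They were Myh8, the perinatal heavy chain, and 2310065F04Rik, a long noncoding RNA of the locus that has been linked to fast fibre genes in mouse muscle. 2310065F04Rik had a mean of 12.5 ± 4.30 CPM in sedentary WT and 26.9 ± 14.9 CPM in sedentary KO muscle (log2 1.10, adjusted p = 0.986), with KO sedentary b highest and KO sedentary a lowest in the group, as for Myh4. Myh8 had a mean of 6.72 ± 3.52 CPM in WT and 30.0 ± 18.9 CPM in KO muscle at rest, and of 5.11 ± 2.16 and 25.9 ± 14.3 CPM after exercise. Averaged over both conditions its log2 fold change was 2.26 (adjusted p = 0.375 by edgeR and 0.00268 by DESeq2). Over all alternatives the adjusted p was 0.00268 to 0.941. Every KO library stood above every WT library, but only just. The lowest KO library, KO sedentary a, had 9.995 CPM and the highest WT library, WT sedentary b, had 9.75 CPM. Myh8 is also a marker of regenerating or denervated fibres, and of the 7 genes of that list Chrna1, which encodes part of the acetylcholine receptor at the nerve-muscle junction, rose in KO muscle in the same average (log2 0.63, SE 0.0924, adjusted p = 0.0358 by edgeR), from 42.6 to 68.6 CPM in WT to 77.1 to 97.6 CPM in KO libraries. Leaving out any 1 library except WT exercise b and WT sedentary a ended that call, with an adjusted p of 0.0524 to 0.108 and a log2 fold change of 0.57 to 0.66, and with library totals its adjusted p was 0.128.

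Over the 12 libraries, the 3 members most like Myh4 were Mybpc2 (Pearson r of log2 CPM 0.856), Actn3 (0.845) and Pvalb (0.836), which ranked 6, 8 and 12 of 8393 genes with a mean of at least 10 CPM. Myh1 ranked 932 (r = 0.391) and Myh2 4050 (r = −0.016). Without KO sedentary b the values were 0.834 for Mybpc2, 0.773 for Actn3, 0.819 for Pvalb and 0.0766 for Myh1. The 5 non-members with the highest r were Itpk1 (0.902), Xpnpep3 (0.900), Pelp1 (0.869), Sept11 (0.861) and Ciz1 (0.858). Their levels moved little beside those of Myh4, for example from 8.36 to 14.5 CPM for Itpk1. These are descriptions of 12 libraries that share depth and normalization, and the genes were picked for a high r.

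For Myh2 the 5 genes with the highest r were others. They were Tcap (0.946), which encodes the titin-cap protein of the Z-disc, Eif3c (0.940), a translation initiation factor subunit, Ipo13 (0.937), an importin, Ivd (0.933), a leucine-breakdown enzyme, and Gmpr (0.932), a purine nucleotide enzyme. Tcap stood at 4955 CPM in KO exercise a and 4843 in WT exercise a, and at 2479 to 3730.0 in the other 10 libraries. Without these 2 libraries the r of Tcap was 0.840 and that of Eif3c 0.900. Among members, r with Myh2 was highest for Tnni2 (0.420) and lowest for Mybpc2 (−0.34), and without KO sedentary b it was 0.835 for Tnnt3 and 0.831 for Tnni2, while without the 2 libraries of high Myh2 it was −0.22 and 0.0698.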

How the data were processed

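Soleus RNA was sequenced in 12 libraries, 3 per group. The authors deposited 1 table of whole-number counts per gene; per the submitters' processing notes STAR, featureCounts and mm10 were used, with no role or version given, and nothing states annotation or strand setting. Columns carry animal numbers that match no label, so each was assigned to its group only, named a to c in column order; 12 further per-sample columns of the table were left unused. Nothing shows that libraries pair, and p-values set differences between group means against the spread between these libraries.

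Counts were analysed with edgeR 4.0.16 (filterByExpr, minimum count 10; TMM; 1 mean per group; robust glmQLFit and glmQLFTest on all 12 libraries), with Benjamini-Hochberg adjustment over 13886 genes and a threshold of 0.05. CPM and Pearson r (log2, prior count 2) were computed here. The code was tested on simulated data. Alternatives used DESeq2 1.42.0 and limma 3.58.1 (voom), other scaling or filters, the compared groups alone, and each library left out; library totals without scaling and leaving out WT exercise a with KO exercise a were added after the data had been seen. GENCODE M21 gave coordinates and exonic lengths. Named were all members; of other lists, called genes or otherwise the extremes; and for Myh4 and Myh2 the 5 genes of highest r. Genes named beyond this rule (among them Myh8, Prox1, Sln, Mylk2, Myl1, Atp2a1, Casq1, Vgll2, Bhlhe40, Sox6 and Myh7) were chosen after their values were seen. The members and lists were chosen with earlier results of these data known, and some results of the regulator list are not reported here.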

Additional observations from a re-analysis of the deposited data

How the results depend on the processing

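Under all 19 alternatives 0 of the 10 fast fibre genes were called in every comparison that could be run, and the lowest adjusted p was 0.149 (Myh2 for averaged exercise, without KO exercise b). No paired analysis was possible because the columns carry animal numbers and not the replicate numbers of the labels. The size of the changes depended on single libraries. Without each library in turn, Myh4 in sedentary KO against WT ranged from 1.20 to 3.61 and Pvalb from 0.32 to 2.59, the low ends without KO sedentary b. Of 70 log2 changes (10 genes, 7 comparisons), none called, 27 changed sign without KO sedentary b, 14 without WT exercise a, 2 to 10 without any other single library, 12 without KO exercise a and WT exercise a, 8 with library totals, 6 with limma-voom and 1 each with DESeq2, its size factors in edgeR or no filter. Log2 changes that turned sign without single libraries had these ranges over the 12 libraries left out: for sedentary KO against WT, Myh1 −0.33 to 0.18, Mylpf −0.24 to 0.27, Tnnt3 −0.18 to 0.36, Tnni2 −0.19 to 0.19, Tnnc2 −0.11 to 0.20 and Casq2 −0.063 to 0.17. For KO against WT after exercise, Myh1 −0.27 to 0.17, Myh2 −0.24 to 0.13, Mylpf −0.22 to 0.041, Tnnt3 −0.16 to 0.092, Tnni2 −0.15 to 0.081, Tnnc2 −0.054 to 0.085, Actn3 −0.052 to 0.71, Pvalb −0.18 to 0.76 and Mybpc2 −0.29 to 0.39. For exercise in WT, Myh1 −0.29 to 0.014, Myh2 −0.016 to 0.25, Myh4 −0.42 to 1.00, Mylpf −0.085 to 0.18, Tnnt3 −0.029 to 0.22, Tnni2 −0.015 to 0.21, Actn3 −0.38 to 0.16, Pvalb −0.014 to 0.28 and Mybpc2 −0.23 to 0.22. For exercise in KO, Myh1 −0.43 to 0.18, Myh4 −2.59 to 0.35, Mylpf −0.32 to 0.19, Tnnt3 −0.30 to 0.24, Tnni2 −0.12 to 0.25, Tnnc2 −0.13 to 0.17, Actn3 −1.64 to 0.20 and Pvalb −2.15 to 0.26. For the interaction, Myh1 −0.30 to 0.32, Myh2 −0.024 to 0.34, Mylpf −0.37 to 0.14, Tnnt3 −0.40 to 0.14, Tnni2 −0.21 to 0.16, Tnnc2 −0.18 to 0.12, Actn3 −1.57 to 0.28 and Pvalb −2.25 to 0.16. For the averaged genotype effect, Myh1 −0.17 to 0.097, Mylpf −0.17 to 0.087, Tnnt3 −0.11 to 0.16, Tnni2 −0.11 to 0.078 and Tnnc2 −0.045 to 0.11. For averaged exercise, Myh1 −0.28 to 0.024, Myh4 −1.10 to 0.36, Mylpf −0.13 to 0.12, Tnnt3 −0.097 to 0.17, Tnni2 −0.012 to 0.17, Tnnc2 −0.037 to 0.11, Actn3 −0.86 to 0.060 and Pvalb −1.02 to 0.18. With limma-voom, Myh1 was −0.031 and Tnni2 was −0.0087 for sedentary KO against WT, Mybpc2 was −0.018 for exercise in WT, Myh1 was −0.035 for the averaged genotype effect and Myh4 was 0.056 and Tnnt3 was 0.022 for averaged exercise. With library totals, Mylpf was −0.030, Tnnc2 was −0.031 and Mybpc2 was −0.057 for exercise in WT, Tnni2 was −0.062 and Tnnc2 was −0.089 for exercise in KO, Tnni2 was 0.00038 for the averaged genotype effect and Tnni2 was −0.028 and Tnnc2 was −0.060 for averaged exercise. Without KO exercise a and WT exercise a, Myh1 was 0.31, Tnnt3 was 0.037 and Tnni2 was 0.018 for KO against WT after exercise, Myh2 was −0.015, Mylpf was −0.084, Tnnt3 was −0.028 and Tnni2 was −0.014 for exercise in WT, Tnni2 was −0.016 for exercise in KO, Myh1 was 0.28 for the interaction, Mylpf was 0.015 and Tnni2 was 0.019 for the averaged genotype effect and Tnni2 was −0.015 for averaged exercise. For averaged exercise Tnnt3 was 0.0067 with DESeq2, 0.0071 with no filter and 0.0067 with the size factors of DESeq2 in edgeR, against −0.0027. The cause of these turns was not tested. With library totals the median of all genes for exercise in KO muscle was −0.118, against −0.0096 with TMM scaling, a shift of −0.109, and the fast fibre changes there were not called. The count of all genes called differed by tool: DESeq2 called 19 against 4 by edgeR for sedentary KO against WT, 9 against 3 after exercise, 122 against 3 for exercise in WT, 340 against 0 in KO, 22 against 0 for the interaction, 33 against 8 for the averaged genotype and 1012 against 322 for averaged exercise. Myh4 made up 21.4% of the heavy chain counts of KO sedentary b when counts were not divided by length. For averaged exercise the count by edgeR ran from 45 to 697 without single libraries.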

Other observations

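Myh3, the embryonic heavy chain at the other end of the cluster, stood at 164 CPM in KO sedentary a and 144 in WT exercise b, and at 21.1 to 70.0 in the other 10 libraries. The 2 libraries had Myh4 at 33.8 and 684 CPM, so a high Myh3 did not go with one level of Myh4. The sum of 7 genes of regenerating or denervated fibres was highest in these 2, at 415 and 325 CPM. Myh3 belongs to that list and gave 164 and 144 CPM of these sums, so they are not a separate measurement. Myh13, the heavy chain of eye muscles and also part of the cluster, lay at 8.69 to 18.9 CPM.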
